A study of Homo sapiens with 6 samples.

Results

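The kinesin, dynein and dynactin motor genes were described in human neurons labelled PEDS1 knockout and in control neurons, both grown from induced pluripotent stem cells (iPSCs). Members were chosen by gene name alone: symbols of the KIF, KLC1 to KLC4, DYNC1, DYNC2, DYNLL, DYNLR, DYNLT and DCTN1 to DCTN6 families, without antisense names. The rule found 65 of the 16625 genes listed, of which 62 are protein-coding. The other 3 are the pseudogene DYNC1I2P1 and the divergent transcripts DYNC1LI2-DT and KIF26A-DT. RefSeq holds 71 protein-coding symbols of these names, and 9 had no row among the genes listed, all of which have at least 10 reads in 3 or more libraries: DYNLRB2, DYNLT4, DYNLT5, KIF14, KIF18B, KIF20A, KIF2B, KIF4B and KLC3.

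There were 2 groups of 3 libraries, PEDS1 knockout and control. PEDS1 is an enzyme of ether lipid synthesis, the plasmanylethanolamine desaturase that yields plasmalogens. Each group came from 1 iPSC line derived from UCSFi001-A, and in both a doxycycline-inducible NGN2, a transcription factor that turns iPSCs into neurons, sits at the AAVS1 locus. The cells were replated after 3 days, kept on doxycycline with BDNF and NT-3, and collected at day 10 to 14 per the series design. The labels name neither separate clones nor separate cultures, so the p-values cover no more than the library-to-library spread, and that may be technical.

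Kinesins and dynein are ATP-driven motors that walk along microtubules. In axons most kinesins carry vesicles, mitochondria and protein complexes outward to the terminal, while cytoplasmic dynein with its partner complex dynactin carries endosomes and signals back to the cell body. A separate set of kinesins builds and moves the mitotic spindle, and most of them are lowered when cells stop dividing. Cargo adaptors join each motor to what it carries and switch it on.

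Recovered reads were 17996634 to 28773664 in the libraries labelled knockout and 25275584 to 44573013 in the controls. PEDS1 itself had 836, 765 and 1349 normalized counts in replicates 1, 2 and 3 labelled PEDS1 knockout, against 1360, 1347 and 1399 in control replicates 1, 2 and 3. The library labelled PEDS1 knockout replicate 3 was thus inside the control range, so its label and every direction that includes it rest on the label alone. With all libraries PEDS1 did not pass the main test, at a log2 fold change of -0.52 (limma adjusted p = 0.0725). The authors' deposited table gives it an adjusted p of 0.0455. Normalized counts are the deposited unit, reads divided by 1 size factor per library. All 14 pan-neuronal marker genes tested were listed, and their summed normalized counts were 499400 to 531603 in the libraries labelled knockout and 449438 to 462020 in controls. Neurofilament medium chain NEFM had 103774 to 119740 normalized counts in libraries labelled knockout and 106570 to 108525 in controls, whereas the neuronal tubulin TUBB3 had only 136 to 202 in libraries labelled knockout and 220 to 293 in controls. The counting tool and its rule for reads that map to several places are unknown here, so the low counts of TUBB3 may not give its transcript level. Of the 14 pan-neuronal markers 5 passed the test (35.7%, against 13.6% of all genes). ELAVL4, INA and NEFL were higher in the libraries labelled knockout, by 0.44, 0.28 and 0.22 on the log2 scale (limma adjusted p = 0.00403, 0.0274 and 0.0496). TUBB3 and RBFOX3 were lower there, at log2 fold changes of -0.70 and -0.36 (limma adjusted p = 0.0244 and 0.0313). Of the pluripotency markers POU5F1 and NANOG had no row, and of the glial markers GFAP and ALDH1L1 had none. Single markers of other states passed the test and were higher in the libraries labelled knockout. LIN28A rose by 1.08 on the log2 scale, PAX6 by 0.89 and COL1A2 by 1.08 (limma adjusted p = 0.000321, 0.00912 and 0.0156). COL1A2 had only 27.9 to 43.1 normalized counts in the libraries labelled knockout and 16.0 to 17.7 in controls. Of the pluripotency, progenitor and fibroblast markers measured, these did not pass: DPPA4 (log2 fold change 0.13), NES (0.15), SOX1 (0.17), VIM (-0.015), PDGFRB (0.87) and COL3A1 (-0.30). SOX2 was lower by the test, at a log2 fold change of -0.47. Marker lists summed to 926 to 1145 normalized counts in the libraries labelled knockout and 733 to 766 in controls for 3 of 8 pluripotency markers, 28775 to 32340 and 26766 to 28594 for 4 of 6 progenitor markers, and 51.0 to 121 and 49.998 to 61.9 for 3 of 8 fibroblast markers, the others having no row. The part of these markers in the motor results was not tested. In such bulk RNA, fewer cells of a type and less RNA per cell cannot be told apart.

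Promoter sequence gives a first view of how the members divide. The RefSeq promoter table (GRCh38.p14, 250 bases before to 50 after each gene start) matched 49 members. The cell cycle homology region TTTGAA, a short element known from promoters that are silent outside division, was searched on both strands. It occurred in 7 of 9 mitotic kinesin promoters, in 1 of 12 axonal transport kinesin promoters, and in 15.2% of all 35116 promoters. The CCAAT box, which often stands upstream of that element, occurred in 7 of 9, in 3 of 12 and in 34.6%. The promoters of 4 genes are given as examples, each written 5′ to 3′ on the strand of its gene. KIF11 and KIF4A are mitotic kinesins with a CCAAT box followed by the element. DYNC2I2, a dynein-2 subunit that was lower in the libraries labelled knockout, holds both motifs although it is no mitotic gene. DCTN5, a dynactin subunit that was higher there, holds the palindrome of the nuclear respiratory factor NRF1 (GCGCA and GCGC with 1 base of any kind between). Capitals mark these motifs, whichever strand they were read on (ATTGG and TTCAAA are the complements), and in DYNC2I2 a CCAAT box and a TTCAAA run into each other.
KIF11, chr10:92592880-92593179, plus strand: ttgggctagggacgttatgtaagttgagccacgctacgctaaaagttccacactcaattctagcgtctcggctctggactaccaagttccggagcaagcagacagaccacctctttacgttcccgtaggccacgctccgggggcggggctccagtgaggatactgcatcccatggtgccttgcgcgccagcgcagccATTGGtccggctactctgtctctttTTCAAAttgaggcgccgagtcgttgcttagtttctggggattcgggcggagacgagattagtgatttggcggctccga
KIF4A, chrX:70289854-70290153, plus strand: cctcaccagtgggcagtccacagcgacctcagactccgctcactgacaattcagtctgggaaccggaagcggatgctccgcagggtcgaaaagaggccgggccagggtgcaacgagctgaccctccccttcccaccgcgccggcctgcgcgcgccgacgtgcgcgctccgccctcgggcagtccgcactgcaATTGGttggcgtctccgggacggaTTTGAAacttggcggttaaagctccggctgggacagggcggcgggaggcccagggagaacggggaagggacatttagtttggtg
DYNC2I2, chr9:128656798-128657097, minus strand: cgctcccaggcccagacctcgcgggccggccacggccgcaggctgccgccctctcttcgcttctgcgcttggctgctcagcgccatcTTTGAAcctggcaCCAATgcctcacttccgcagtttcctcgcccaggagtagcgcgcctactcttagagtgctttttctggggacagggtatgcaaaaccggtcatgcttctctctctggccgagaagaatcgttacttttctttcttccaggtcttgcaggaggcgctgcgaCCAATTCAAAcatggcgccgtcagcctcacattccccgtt
DCTN5, chr16:23641216-23641515, plus strand: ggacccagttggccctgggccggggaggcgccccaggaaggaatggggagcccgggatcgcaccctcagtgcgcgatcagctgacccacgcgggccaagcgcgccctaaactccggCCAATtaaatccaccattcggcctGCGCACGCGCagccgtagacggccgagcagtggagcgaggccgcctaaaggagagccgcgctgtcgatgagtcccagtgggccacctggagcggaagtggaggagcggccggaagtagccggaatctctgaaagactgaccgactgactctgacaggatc
In KIF11 the CCAAT box begins at -53 from the gene start and the TTTGAA element at -28, 25 bases further on. In KIF4A the box begins at -58 and the element at -34, 24 bases further on. That distance was not constant in the mitotic class. It was 9 bases in KIF23, 35 in KIF18A, 50 and 79 in KIFC1 and 122 to 161 in KIF20B, where motifs occur more than once in the last 2 genes. The NRF1 palindrome was found in 11 of the 49 member promoters and in 5.78% of all promoters. Its other carriers were DCTN1, DCTN4, DYNC1H1, DYNLL1, DYNLT1, DYNLT2, KIF2A, KIF3A, KIF5B and KIF6, so it was found in dynein, dynactin and kinesin genes and in none of the 9 mitotic kinesins matched. Member promoters were also rich in GC, with a median of 65.0% and 29 CpG pairs, against 58.7% and 14 over all promoters. Elements of the unfolded protein and integrated stress responses were rare: CCAAT followed after 9 bases by CCACG, and TGACGTGG, were in no member promoter (0.0769% and 0.729% of all), and TGATGNAAT was in that of DCTN1 only (0.991% of all). The cyclic AMP element TGACGTCA was in those of KIF15 and KLC1 (1.85% of all). These matches describe letters in a window and do not show binding.

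Levels set the motors in order before any comparison. Levels between genes are given as normalized counts per kb of the principal transcript. KIF5C, a neuronal kinesin-1 heavy chain that carries mitochondria and vesicles, was the highest motor, with a mean of 12375 per kb in the libraries labelled knockout and 10866 in controls, where it ranked 82 among 16051 genes with a length. The dynein light chain DYNLL1, a small hub protein of dynein and other complexes, followed with 8268 and 7570 per kb, then DYNLT1 with 5155 and 4868 and DCTN2 with 5147 and 4887. KIF1A, the kinesin-3 that carries synaptic vesicle precursors and dense core vesicles, had 4885 and 4513 per kb. The order of DYNLT1, DCTN2 and KIF1A among themselves did not exceed the spread between libraries. Mitotic kinesins lay at the other end: apart from KIF22, the 8 others had 1.98 to 21.6 per kb in controls. That low level was not particular to the class. KIF24, KIF6, KIF25, KIF17 and KIF12, which are not in it, had 3.08, 3.83, 6.30, 7.70 and 18.8 per kb in controls.

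**Figure D1:**
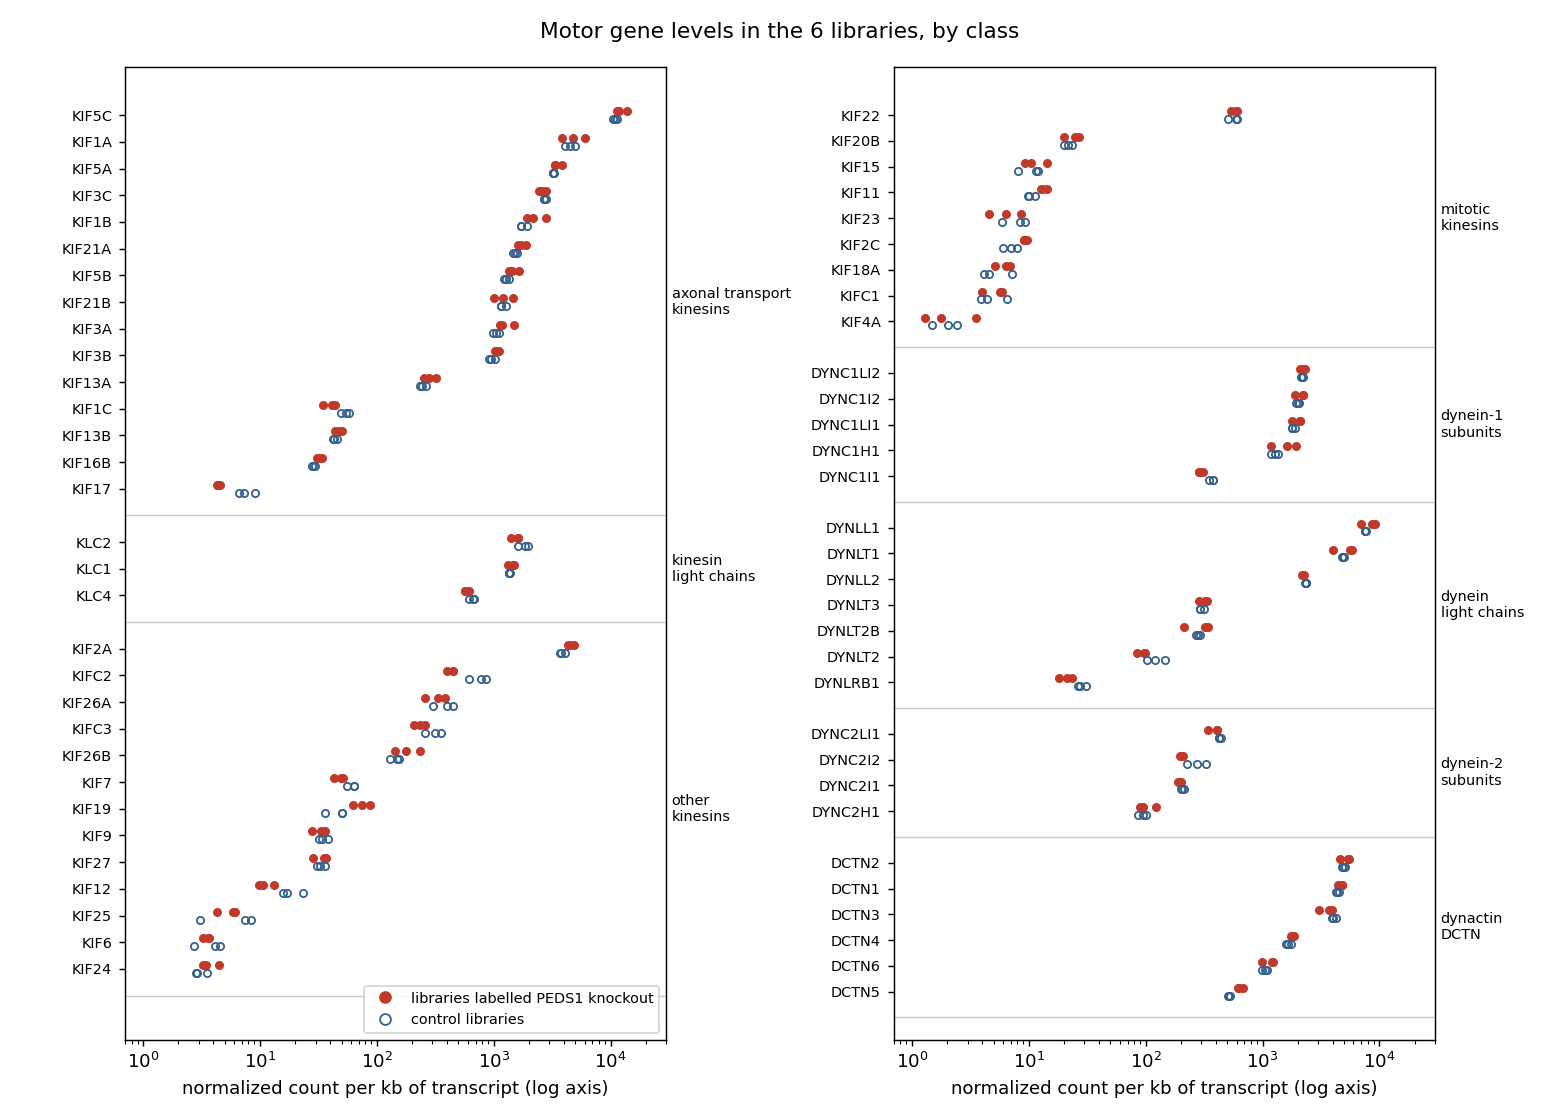
Normalized count per kb of transcript (log axis) of the 62 protein-coding motor genes in each library, libraries labelled PEDS1 knockout as filled circles above control libraries as open circles, grouped by class and ordered by control level. KIF5C is the highest gene in every library, and among mitotic kinesins KIF22 stands far above the other 8.

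Between genotypes, 7 of the 65 members (10.8%) passed the test, 2 higher and 5 lower in the libraries labelled knockout, against 13.6% of all 16625 genes. Of all genes 5.95% were called higher and 7.69% lower, so the members' share is close to that background and says nothing particular about motors. The members' median log2 fold change was 0.070, against -0.0064 over all genes. In 27 members (41.5%) the 3 libraries labelled knockout did not overlap the 3 controls, 14 higher and 13 lower, against 37.1% of all genes (19% higher, 18.2% lower). The test was limma on log2(normalized count + 1) with Benjamini-Hochberg adjustment over all genes, two-sided at 0.05, and fold changes are knockout over control on that scale, where the added 1 shrinks the fold changes of low genes. By edgeR on the recovered reads 7 members passed, against 13.5% of all genes, and by DESeq2 9 did, against 18% of the genes it tested. The count depends on single libraries: leaving out control replicate 1 gave 1 call, control replicate 2 gave 2 and replicate 2 labelled knockout gave 3, against 3.75%, 3.5% and 9.08% of all genes, and leaving out replicate 3 labelled knockout gave 15, against 21.5% of all genes.

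**Figure D2:**
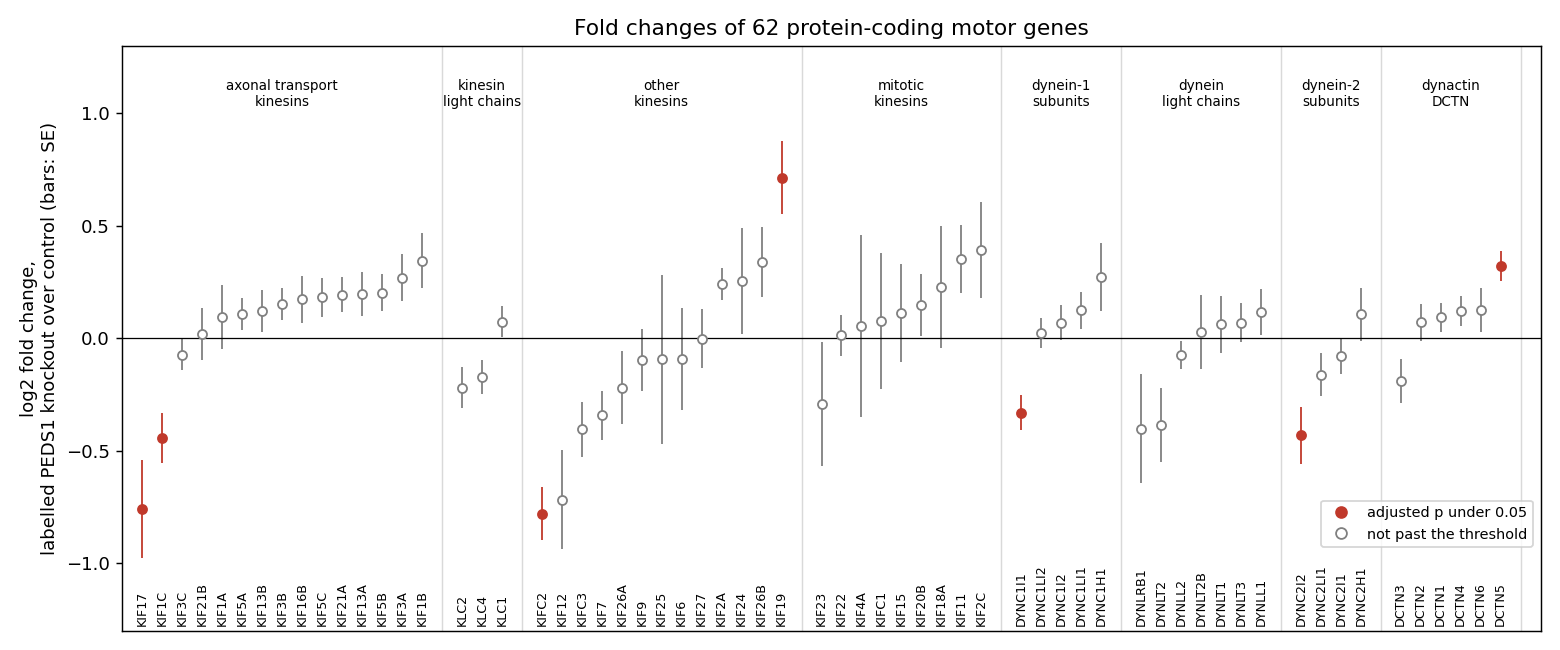
Log2 fold change (libraries labelled PEDS1 knockout over control) with its standard error for the 62 protein-coding motor genes, in order of size within each class; filled red points had an adjusted p under 0.05. The 7 filled points are KIF17, KIF1C, KIFC2, DYNC1I1 and DYNC2I2 below 0 and KIF19 and DCTN5 above it.

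Among the 15 axonal transport kinesins, KIF1C and KIF17 fell and none rose (13.3% called, against 13.6% of all genes). KIF1C, a kinesin-3 of Golgi-derived and dense core vesicles (chr17:4997948-5028401, plus strand, GRCh38), had 275, 328 and 345 normalized counts in the libraries labelled knockout and 456, 434 and 395 in controls. All 3 were below all controls, at 0.736 of the control level. Its log2 fold change was -0.44 ± 0.11 (SE, n = 3 each; limma adjusted p = 0.0278). The adjusted p was 0.0671 without replicate 1 labelled knockout, 0.132 without control replicate 1 and 0.123 without control replicate 2. KIF17, which in mouse carries a glutamate receptor subunit into dendrites (chr1:20664014-20718017, minus strand), had 17.3, 17.0 and 18.1 normalized counts in the libraries labelled knockout and 35.9, 29.2 and 26.5 in controls. Its groups did not overlap either, and the log2 fold change was -0.76 ± 0.22 (SE, n = 3 each; limma adjusted p = 0.0444). KIF17 is the lowest of the 15 genes, and its call held in 7 of 20 settings, and on leaving out 1 library it held only without replicate 3 labelled knockout (adjusted p = 0.0476, against 0.0624 to 0.194 without any other).

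The other 13 members of the class did not pass. Of the 15, 10 did not overlap between groups, 8 of them higher in the libraries labelled knockout (KIF1B, KIF3A, KIF3B, KIF5A, KIF5B, KIF5C, KIF16B and KIF21A) and 2 lower, against 19% higher and 18.2% lower of all genes. After quantile scaling 6 did not overlap, 3 higher and 3 lower, against 19.4% higher and 16.2% lower of all genes. After removal of GC and length trends 5 did not, 2 higher and 3 lower, against 17.7% and 22.3%, so the count depends on the scaling. KIF5C had 79032, 81646 and 96644 normalized counts in the libraries labelled knockout and 72315, 75051 and 78564 in controls. All 3 were above the controls, replicate 3 by the most, at a log2 fold change of 0.18 ± 0.09 (SE, n = 3 each; limma adjusted p = 0.178), and with GC and length trends removed its log2 fold change was 0.022. KIF1B, the kinesin-3 for mitochondria and synaptic vesicle precursors, had 20515, 23048 and 29818 in the libraries labelled knockout and 18478, 18268 and 20397 in controls. Its log2 fold change was 0.34 ± 0.12 (SE, n = 3 each) with a limma adjusted p of 0.0850, and the authors' deposited table gives it an adjusted p of 0.0419. KIF1A had 34678, 42896 and 54125 in the libraries labelled knockout, which spanned the controls' 44712, 40085 and 36883. Its log2 fold change was 0.09 ± 0.14 (SE, n = 3 each; limma adjusted p = 0.677). The summed class had 212520, 227864 and 273524 normalized counts in the libraries labelled knockout and 213551, 210029 and 215013 in controls. Replicate 1 labelled knockout was thus inside the control range, and replicate 3 exceeded that range by the most.

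Kinesin light chains, which bind cargo for kinesin-1, gave no call in the 3 genes measured, while 2 (KLC2 and KLC4) had an unadjusted p under 0.05 and none passed by edgeR or DESeq2. KLC2 had 4276, 4832 and 4901 normalized counts in the libraries labelled knockout and 5936, 5563 and 4845 in controls, with an overlap in replicate 3 (-0.22 ± 0.09 on the log2 scale, SE; limma adjusted p = 0.129). KLC1 had 4798, 4866 and 4338 in the libraries labelled knockout and 4435, 4455 and 4405 in controls (0.07 ± 0.07, SE; adjusted p = 0.4996). In GENCODE 29, 29.9% of the exon bases of KLC1 overlap XRCC3 on the opposite strand. The library kit keeps the strand, but no source used here gives the strand setting of the counting.

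The other 13 kinesins held the clearest change of all members. In this class 1 gene rose and 1 fell (15.4% called, against 13.6% of all genes). KIFC2, a minus-end-directed C-terminal kinesin known from mouse brain, had 1448, 1304 and 1472 normalized counts in the libraries labelled knockout and 2796, 2541 and 1986 in controls. Every library labelled knockout, replicate 3 included, lay below every control, at 0.582 of the control level. The log2 fold change was -0.78 ± 0.12 (SE, n = 3 each; limma adjusted p = 0.00333), and KIFC2 was the only member called in 20 of 20 settings. With GC and length trends removed the fold change was -0.42. Of its exon bases 17.8% overlap FOXH1 on the opposite strand.

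KIF19, which in mouse shortens cilia by removing tubulin from microtubule ends (chr17:74326210-74355820, plus strand), was higher. It had 230, 321 and 272 normalized counts in the libraries labelled knockout and 185, 185 and 132 in controls. The groups did not overlap, and the level was 1.64 times that of controls, at a log2 fold change of 0.71 ± 0.16 (SE, n = 3 each; limma adjusted p = 0.0205). The adjusted p was 0.0571 without replicate 2 labelled knockout, 0.0520 without control replicate 1 and 0.0503 without control replicate 3. A further 4 of the 13 kinesins lay just outside the threshold without overlap between groups. With the called genes counted, 6 of the 13 did not overlap (46.2%), against 37.1% of all genes. KIF2A, a microtubule depolymerase that in mouse trims axon branches, had 11382, 10978 and 12329 normalized counts in the libraries labelled knockout and 9434, 9612 and 10313 in controls (log2 fold change 0.24 ± 0.07, SE; limma adjusted p = 0.0524). In GENCODE 29, 8.97% of its exon bases overlap IPO11 on the same strand. KIFC3, another minus-end-directed kinesin, had a log2 fold change of -0.41 (adjusted p = 0.0552), KIF12 of -0.72 (0.0564), and KIF7, which acts in Hedgehog signalling at the ciliary tip, of -0.34 (0.0632). The authors' deposited table puts 9 members under 0.05, against 18% of all genes with an adjusted p: the same ones apart from KIF17, with KIFC3, KIF2A and KIF1B in addition.

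**Figure D3:**
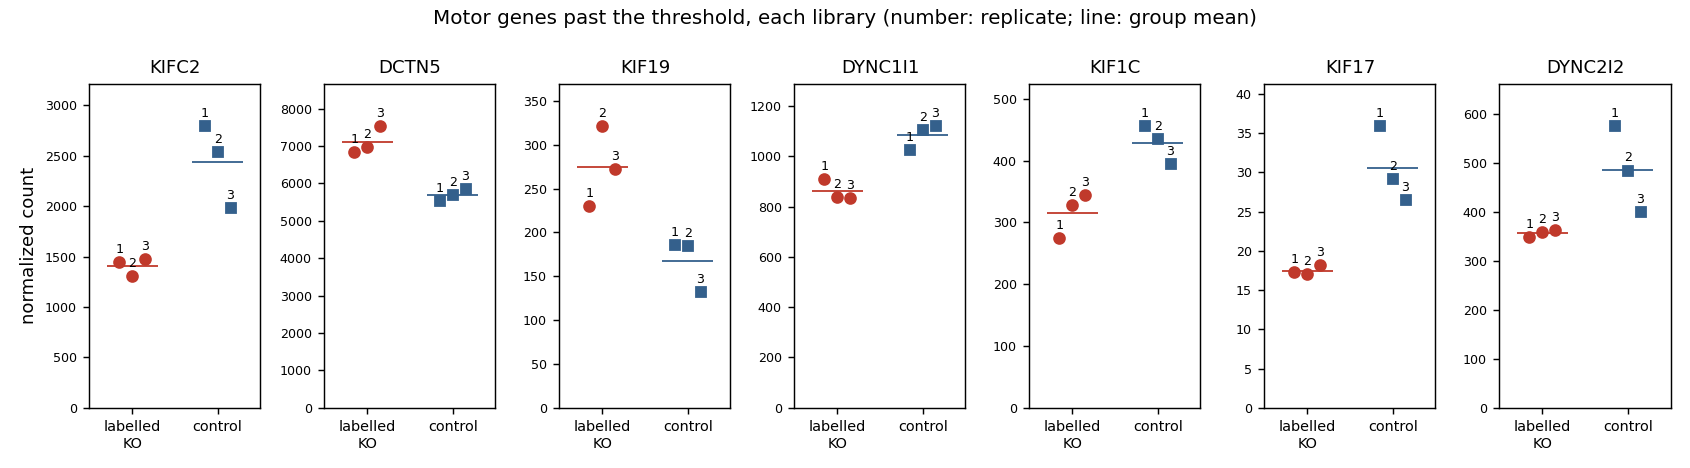
Normalized counts (axes from 0) of the 7 motor genes with an adjusted p under 0.05, in each library labelled PEDS1 knockout (KO) and each control library; digits are replicate numbers and lines group means. In each panel the 3 libraries labelled KO lie wholly above or wholly below the 3 controls, and in KIFC2 those libraries lie between 1304 and 1472.

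The mitotic kinesins were few in reads and none of the 9 measured passed, 1 (KIF11) having an unadjusted p under 0.05 and none passing by edgeR or DESeq2. KIF11, the bipolar spindle motor, had 61.6, 69.6 and 63.5 normalized counts in the libraries labelled knockout and 55.5, 47.8 and 48.8 in controls. The groups did not overlap, at a log2 fold change of 0.35 ± 0.15 (SE, n = 3 each; limma adjusted p = 0.143). KIF20B, a kinesin of cytokinesis, had 127, 158 and 171 in the libraries labelled knockout and 126, 135 and 147 in controls (0.15 ± 0.14, SE; adjusted p = 0.484). KIF22, a chromosome arm motor, stood apart in level: it had 1245, 1275 and 1135 in the libraries labelled knockout and 1288, 1260 and 1080 in controls (0.013 ± 0.090, SE; adjusted p = 0.939). KIF22 makes up most of the class sum, and its promoter has a CCAAT box and no TTTGAA. With GC and length trends removed KIF22 was called at a log2 fold change of 0.18 (adjusted p = 0.0400). Over 20 settings its fold change ran from -0.066 to 0.21 and its adjusted p from 0.00880 to 0.989. The class sum was 1515 to 1643 in the libraries labelled knockout and 1419 to 1617 in controls. Beside it, the 16 dividing cell markers measured of 20 summed to 2500 to 2733 in the libraries labelled knockout and 2404 to 2486 in controls, and BIRC5, CCNB2, AURKB and RRM2 had no row. Of those markers 2 passed (12.5%, against 13.6% of all genes), both higher. Of the 16, 11 had a log2 fold change above 0. CCNA2, MCM5, PLK1, TYMS and PCNA were below 0, at -0.33, -0.29, -0.08, -0.03 and -0.02, none past the threshold. TOP2A had 60.6, 68.0 and 70.3 in the libraries labelled knockout and 32.7, 25.7 and 37.7 in controls. Its log2 fold change was 1.04 (limma adjusted p = 0.00749), and that of TPX2 was 0.49 (adjusted p = 0.0144). Whether a few dividing cells contribute to KIF11 was not tested.

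In cytoplasmic dynein-1, the retrograde axonal motor, DYNC1I1 was the only 1 of 5 subunits to pass, against 13.6% of all genes. DYNC1I1 is the intermediate chain enriched in rodent neurons (chr7:95772506-96110322, plus strand). It had 910, 839 and 836 normalized counts in the libraries labelled knockout and 1026, 1106 and 1121 in controls. The groups did not overlap, and the log2 fold change was -0.33 ± 0.08 (SE, n = 3 each; limma adjusted p = 0.0230), at 0.795 of the control level. Without replicate 2 labelled knockout or control replicate 1, 2 or 3 the adjusted p was 0.0672, 0.0646, 0.134 and 0.0614. Its ubiquitous paralogue DYNC1I2 had 5783, 5751 and 4985 in the libraries labelled knockout and 5074, 5283 and 5357 in controls, overlapping (0.07 ± 0.08, SE; adjusted p = 0.565). Reads of DYNC1I2 and its pseudogene DYNC1I2P1, listed at 19.3 to 27.8 and 17.4 to 32.7 normalized counts, may be split by the counting. The light intermediate chain DYNC1LI2, a cargo adaptor site, had 10138, 9524 and 10439 in the libraries labelled knockout and 9821, 9709 and 10065 in controls (0.024 ± 0.065, SE; adjusted p = 0.836). The heavy chain DYNC1H1, the motor itself, had 23409, 32447 and 38530 in the libraries labelled knockout and 25773, 23702 and 27260 in controls. Its replicates labelled knockout differed by more than the groups did (0.27 ± 0.15, SE; adjusted p = 0.243).

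Dynein-2 drives transport from the tip of the primary cilium to its base. Of its 4 subunits measured 1 passed (25.0%, against 13.6% of all genes). DYNC2I2, an intermediate chain (chr9:128633661-128656787, minus strand), had 348, 359 and 363 normalized counts in the libraries labelled knockout and 576, 485 and 399 in controls. The libraries labelled knockout lay close together below all controls, at a log2 fold change of -0.43 ± 0.13 (SE, n = 3 each; limma adjusted p = 0.0472). With GC and length trends removed the fold change was -0.13 (adjusted p = 0.241), and over the settings the adjusted p ran from 0.0171 to 0.241. Leaving out replicate 1 or 2 labelled knockout gave 0.0925 and 0.0870, and leaving out control replicate 1 or 2 gave 0.190 and 0.160. DYNC2LI1, the light intermediate chain, had 570, 572 and 475 in the libraries labelled knockout and 595, 618 and 589 in controls, without overlap (-0.16 ± 0.09, SE; adjusted p = 0.267).

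None of the 7 dynein light chain genes measured passed, 1 (DYNLT2) having an unadjusted p under 0.05 and none passing by edgeR or DESeq2. DYNLL1 had 7044, 7524 and 5622 normalized counts in the libraries labelled knockout and 6095, 6118 and 6274 in controls (0.12 ± 0.10 on the log2 scale; limma adjusted p = 0.456). DYNLT1 had 4234, 4096 and 2898 in the libraries labelled knockout and 3464, 3508 and 3631 in controls (0.06 ± 0.13, SE; adjusted p = 0.769). In both, replicates 1 and 2 labelled knockout lay above all controls and replicate 3 below them. DYNLRB1, a roadblock light chain, had only 12.4 to 15.9 normalized counts in the libraries labelled knockout and 17.9 to 20.7 in controls, and with the counting rule for shared reads unknown these counts may not give its transcript level.

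Dynactin, the complex that makes dynein processive, had 1 of 6 DCTN subunits called (16.7%, against 13.6% of all genes). DCTN5, a subunit of the pointed-end cap (chr16:23641392-23677455, plus strand), had 6837, 6985 and 7536 normalized counts in the libraries labelled knockout and 5530, 5689 and 5858 in controls. Every library labelled knockout was above every control, at a log2 fold change of 0.32 ± 0.07 (SE, n = 3 each; limma adjusted p = 0.0148). With GC and length trends removed the fold change was 0.13 (adjusted p = 0.108, range over settings 0.000845 to 0.108), and 26.0% of its exon bases overlap AC008870.1 on the same strand. Without control replicate 1 or control replicate 2 the adjusted p was 0.0886 and 0.0964. DCTN1, the subunit p150Glued that contacts microtubules, had 19926, 21649 and 21374 in the libraries labelled knockout and 20109, 19579 and 19294 in controls (0.09 ± 0.07, SE; adjusted p = 0.352). DCTN2, the shoulder subunit dynamitin, had 9104, 9148 and 7643 in the libraries labelled knockout and 8032, 8123 and 8433 in controls (0.07 ± 0.08, SE; adjusted p = 0.586).

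Shares among paralogues show how the mix within a motor family differed, each as a percentage of the family's summed normalized count per kb. DYNC1I1 made up 12.2%, 11.4% and 12.9% of both intermediate chains in the libraries labelled knockout and 15.1%, 15.6% and 15.6% in controls. All 3 shares were below all controls, and the difference was -3.28 percentage points (-2.84 with GC and length trends removed). KIF3C, a kinesin-2 partner of KIF3A, made up 52.5%, 54.4% and 51.6% of the KIF3 genes in the libraries labelled knockout and 58.8%, 58.5% and 55.9% in controls. These groups did not overlap either, with a difference of -4.95 percentage points that became -2.09 with GC and length trends removed. Counts of KIF3C itself overlapped between groups (log2 fold change -0.07, limma adjusted p = 0.499). The share of KIF5C among the kinesin-1 heavy chains was 71.2% ± 0.652 in the libraries labelled knockout and 70.6% ± 0.556 in controls (SD, n = 3 each), which overlapped. The shares of KIF1A, KIF21B, DYNC1LI1 and DYNLL1 within their families overlapped too. For KIF5C, KIF1A and KIF21B the sign of the difference turned once GC and length trends were removed. These shares were chosen after their values were seen, and with 3 against 3 libraries an exact permutation test cannot go below 0.1, so none was tested.

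**Figure D4:**
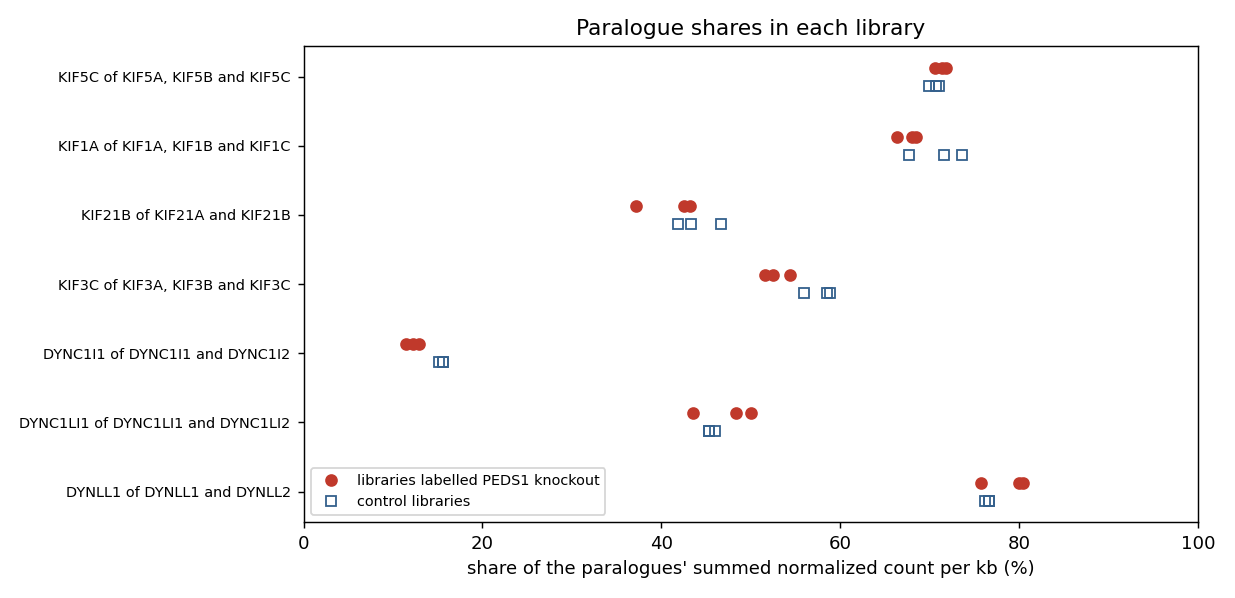
Share (%) of a motor paralogue in its family's summed normalized count per kb, libraries labelled PEDS1 knockout as filled circles and control libraries as open squares, 3 libraries each. Only for KIF3C and DYNC1I1 do the groups not overlap, both lower in the libraries labelled knockout.

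The library labelled PEDS1 knockout replicate 3 differed from replicates 1 and 2 by transcript length. Over the 48 members with a mean of 100 or more, its log2 difference from the mean of replicates 1 and 2 correlated with log2 transcript length at Pearson's r = 0.756. For control replicate 3 the same value was 0.179. These r describe genes that share a library, and genes are not independent replicates. Of the 24 members with transcripts of 5 kb or more, 22 were higher in that library than in its 2 companions, with a median of 0.22 on the log2 scale. Of the 24 shorter members 11 were higher, with a median of -0.06. The long motors DYNC1H1, KIF1A and KIF1B exceeded their companions by 0.48, 0.49 and 0.46, while DYNLT1 was below by -0.52 and DYNLL1 by -0.37. Each library's deviation from the mean of all 6 was also correlated over genes of known length with a mean of 100 or more. With log2 length it was 0.58 in replicate 3 labelled knockout and -0.27 to -0.07 in the 5 other libraries. These deviations sum to 0 in each gene, so 1 high library lowers the others. With GC content the correlation of these deviations was -0.55, -0.18 and -0.27 in replicates 1, 2 and 3 labelled knockout. In control replicates 1, 2 and 3 it was 0.64, 0.48 and -0.13. Replicate 1 labelled knockout and control replicates 1 and 2 thus stood farther from 0 than the other 3 libraries. Over the members the log2 fold change between genotypes correlated with GC content at r = -0.44, with the libraries shared. The part of length and GC content in the results was not tested beyond the values given with their trends removed.

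**Figure D5:**
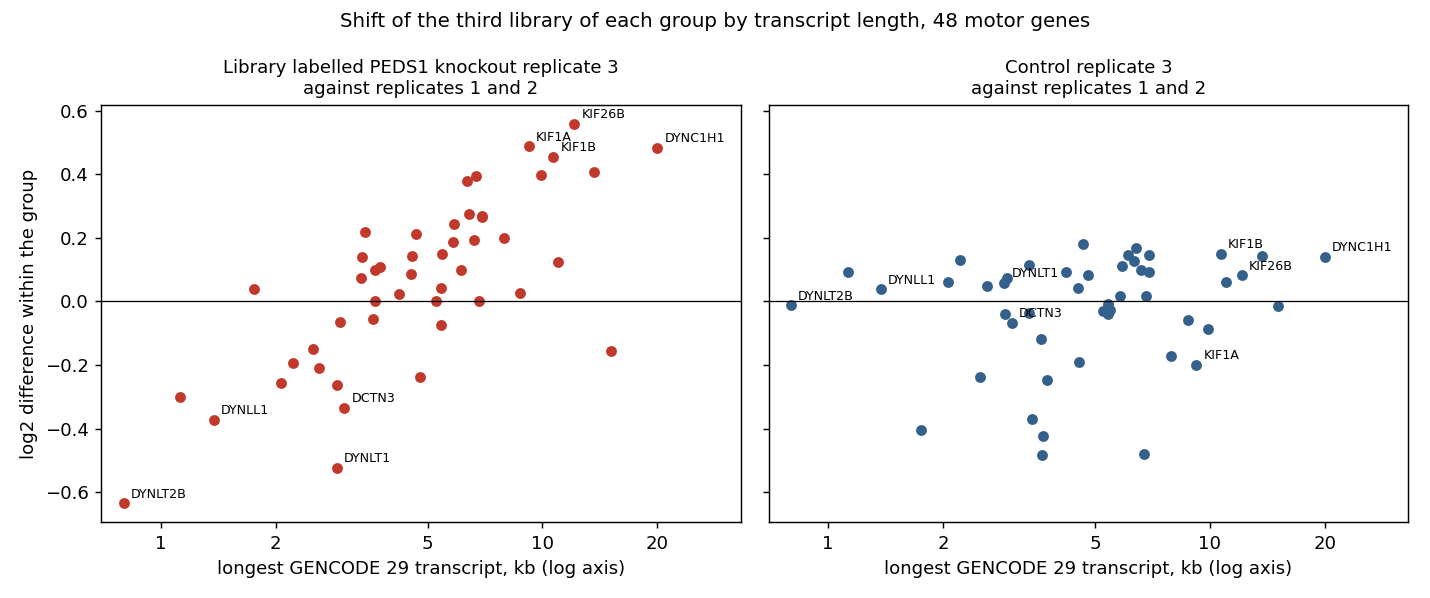
Log2 difference of the third library of each group from the mean of the first and second, against the longest GENCODE 29 transcript in kb (log axis), for 48 motor genes; left the library labelled PEDS1 knockout replicate 3, right control replicate 3. Long genes such as DYNC1H1 and KIF1A lie near 0.5 on the left and short ones such as DYNLT1 lie below 0, with r = 0.756 on the left and 0.179 on the right.

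When that library was left out 15 members passed, 8 higher and 7 lower, against 21.5% of all genes (10.4% higher, 11.1% lower). The 7 members called with all libraries passed again, joined by KIF2A, DYNC1LI1, DCTN2, DCTN6, DYNLL1 and DYNLT1, all higher, and by KIFC3 and KIF7, both lower. In the 5 joining dynein and dynactin genes, all with transcripts under 5 kb, replicate 3 was the lowest of the libraries labelled knockout. With GC and length trends removed in all 6 libraries 6 members passed, against 19.8% of all genes (8.18% higher, 11.6% lower): KIFC2, KIF1C, DYNC1I1 and the light chain DYNLL2 lower and KIF19 and KIF22 higher. Both together gave 17 members, 10 higher and 7 lower, against 26.9% of all genes (11.3% higher, 15.6% lower).

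Of the 63 genes measured around the motors, 10 passed (15.9%), 5 higher and 5 lower, against 13.6% of all genes. Among 23 genes listed as dynein regulators and activating adaptors, 2 rose and 2 fell (17.4% called, against 13.6% of all genes). HOOK1, an adaptor of early endosomes, had 282, 284 and 309 normalized counts in the libraries labelled knockout and 429, 465 and 473 in controls. The groups did not overlap, at a log2 fold change of -0.64 ± 0.09 (SE, n = 3 each; limma adjusted p = 0.00224). BICD1, which joins dynein to RAB6 vesicles, rose by 0.46 (adjusted p = 0.0278), and had 5469, 5708 and 7552 in the libraries labelled knockout against 4410, 4312 and 4776 in controls. BICDL1, an adaptor that binds dynein and KIF1C, fell, with 987, 932 and 1003 in the libraries labelled knockout and 1261, 1218 and 1162 in controls (-0.32 ± 0.07, SE; adjusted p = 0.0227). TRIM2, counted in this list although it is a ubiquitin ligase that binds neurofilament light chain, rose by 0.38 (adjusted p = 0.0186).

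Among 34 genes listed as kinesin adaptors and cargo linkers, 2 rose and 3 fell (14.7% called, against 13.6% of all genes). GRIP1, a scaffold that links glutamate receptors to KIF5, had 2200, 2124 and 2267 normalized counts in the libraries labelled knockout and 1674, 1743 and 1827 in controls (log2 fold change 0.33 ± 0.07, SE, n = 3 each; limma adjusted p = 0.0159). KIFBP, which binds and restrains kinesin motor domains, rose by 0.27 (adjusted p = 0.0445). It falls outside the naming rule and was chosen after its values were seen. BORCS6 and KXD1, subunits of the BORC complex that couples lysosomes to kinesins through ARL8, both fell, by a log2 fold change of -0.53 (adjusted p = 0.0227) and -0.34 (adjusted p = 0.0246). BORCS6 had 222, 257 and 245 in the libraries labelled knockout and 390, 373 and 291 in controls. KXD1 had 699, 720 and 643 in the libraries labelled knockout and 908, 857 and 841 in controls. None of the other BORC subunits listed passed. Their log2 fold changes were 0.19 (BORCS5), 0.028 (BLOC1S2), -8.7e-05 (BLOC1S1), -0.063 (SNAPIN), -0.23 (BORCS7) and -0.23 (BORCS8). TRIM46, counted in this list although it bundles microtubules at the start of the axon, fell by the test. Its log2 fold change was -0.49 (limma adjusted p = 0.0405). Its replicates 3 nearly coincided, at 1032 in the library labelled knockout and 1030 in the control. Of 6 dynactin subunits outside the DCTN names 1 rose (16.7%, against 13.6% of all genes). This was CAPZA1, which caps the barbed end of the dynactin filament. It had 4475, 4495 and 4419 in the libraries labelled knockout and 3525, 3753 and 3939 in controls. Its log2 fold change was 0.26 ± 0.07 (SE, limma adjusted p = 0.0350). HOOK1 was called in all 20 settings, and the other 8 genes named by the rule lost their call in 3 to 7 of 19 alternatives. With replicate 3 labelled knockout left out 19 of the 63 genes passed, against 21.5% of all genes. With control replicate 1 or control replicate 2 left out 1 passed in each case, against 3.75% and 3.5% of all genes.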

How the data were processed

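PolyA RNA was sequenced in 6 libraries, 3 PEDS1 knockout and 3 control, from 500 ng of total RNA as single-end 100 bp stranded reads in 1 lane, per the labels' protocols. Groups and replicate numbers come from the labels. STAR 2.7.10b, DESeq2 and the GRCh38 build were used, per the submitters' processing notes; no source used here gives the counting tool, its strand setting or the annotation. The authors' deposited signal values are counts scaled by a library size factor. Dividing each by its library's step, the value of 1 read, gave whole reads for 100% of them (tolerance 1e-06). Per the file headers, the authors also deposited, per gene, a log2 fold change, a score, a p-value and an adjusted p-value, the last empty in 1612 genes.

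The main test was limma 3.58.1 in R 4.3.3 on log2(normalized count + 1), with a trended variance and p-values adjusted by Benjamini-Hochberg over 16625 genes. Alternatives were TMM and quantile scaling, DESeq2 1.42.0 and edgeR 4.0.16 fitted to recovered reads, the authors' adjusted p, filters at a mean of 10 and 100, pseudocounts of 0.5 and 5, a stricter threshold, removal of the GC and length trends of each library (natural splines, 4 degrees of freedom, GENCODE 29, 96.5% of genes), a replicate block, and fits with 1 library left out in turn. With the main test these make 20 settings. Of them 1, trend removal without the library labelled PEDS1 knockout replicate 3, was added after seeing the data. The settings reuse the same libraries and are not separate checks: the authors' adjusted p and DESeq2 each called 2706 of 15013 genes. Named genes are all members past the threshold, the 2 highest members per kb of each class, and up to 4 of each surrounding list past the threshold; others that are named were chosen after their values were seen. Members and lists were chosen with earlier results of these data known. On simulated reads of 16625 genes the test recovered 82.1%, 98.5% and 100% of genes changed 1.5-, 2- and 4-fold, and 4.10% of its 195 calls were false; 200 genes were changed there, so this is not the power in these data. All pairs of replicates differed beyond sampling noise, by a mean squared difference of 10.9 to 32.3 times that noise among libraries labelled knockout and 2.67 to 11.8 times among controls. Same-numbered libraries did not deviate together (r = -0.30, 0.10 and -0.05 over 11705 genes), so no pairing by number was seen. These r cannot exclude one, since the deviations within a group sum to 0 and hold the GC and length trends of single libraries. Protein sequences were not used here. A marker gene is not reported here.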

Additional observations from a re-analysis of the deposited data

How the results depend on the processing

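The 7 calls among the 65 motor genes became 1 at an adjusted p under 0.01, 4 with the replicate block, 1 to 15 when a library was left out, and 17 with GC and length trends removed and replicate 3 labelled PEDS1 knockout left out. The count with the block held 3 higher and 1 lower, and whether the replicate numbers mark a pairing is unknown. The lowest counts, 1 and 2, came without control replicate 1 and control replicate 2, 3 came without replicate 2 labelled PEDS1 knockout, and 15 came without replicate 3 labelled so; the cause was not tested. The 2 axonal transport calls became 1 with quantile scaling, 1 at a mean count of 100 or more, where KIF17 is filtered out, 0 at 0.01, 1 with GC and length trends removed, 1 with the block and 0 to 2 when a library was left out. With the block, and without replicate 1 labelled PEDS1 knockout, that 1 call was KIF1B, higher, and neither KIF1C nor KIF17 passed. The 10 of these kinesins without overlap became 9 with TMM scaling, 6 with quantile scaling and 5 with the trends removed. The mitotic count of 0 became 1 with the trends removed, with or without that library. The 2 calls among other kinesins and light chains became 4 by the authors' adjusted p and by DESeq2, 1 at 0.01, 1 to 5 when a library was left out and 5 with both changes. The 3 dynein and dynactin calls became 0 at 0.01, 1 with the block, 0 to 8 when a library was left out and 9 with both. The 10 adaptor and regulator calls became 1 at 0.01, 20 with the trends removed, 5 with the block, 1 to 19 when a library was left out and 25 with both. Over all genes 2269 calls became 640 at 0.01, 582 to 3577 when a library was left out, and 4313 with both; the block gave 1560. The members' median log2 fold change of 0.070 became 0.0217 with the trends removed, 0.0207 with both, and 0.0321 to 0.0939 when a library was left out. DYNC1LI2 was the only named gene whose direction turned at a call, to -0.11 (adjusted p = 0.0375) with both changes; over its settings the adjusted p ran from 0.0375 to 0.956. For the named genes 460 values kept their direction and side of the threshold, 78 lost the call and 16 gained it. In 14 more the sign turned without a call, in DYNC1LI2, DYNLT1 (lowest -0.04), KIF1A (-0.07), KIF20B (-0.07), KIF22 (-0.07) and KIF5C (-0.02). In the mitotic class, most of whose members have under 100 normalized counts, the median standard error was 0.22 on the log2 scale, against 0.11 over all genes.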
